A study of Homo sapiens with 47 samples.

Results

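The 7 genes described here are HIST1H4C, HIST1H1E, HIST1H1D, HIST1H3B, HIST1H1C, HIST1H4E and HIST1H2BK, the rows of the count table taken here as replication histone mRNAs. They are 7 of 18651 gene rows, and together they held 17445 of 2919198 endogenous molecule counts. The study profiled 47 single HEK293 cells, an established line that was made from human embryonic kidney with sheared adenovirus DNA, in 1 run, with no treatment and no second genotype. Each cell was lysed in its own chamber of a microfluidic circuit together with ERCC spike-in RNAs, a set of synthetic polyadenylated RNAs added at 20000 molecules per cell. RNA was copied from an oligo-dT primer, and each cDNA received a unique molecular identifier (UMI) at the transcript's 5′ end, so that copies of 1 captured molecule are counted once.

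Replication-dependent histones package newly made DNA, and their genes are transcribed mainly during S phase. The core histones (H2A, H2B, H3 and H4) form the nucleosome, and linker histone H1 binds the DNA where it enters and leaves it. Their mRNAs are a known exception among human mRNAs: most end in a short stem-loop bound by the protein SLBP in place of a poly(A) tail, and they are degraded when DNA synthesis stops. HIST1H4C and HIST1H4E encode the same core histone, H4. HIST1H3B encodes an H3 of the replication-coupled kind, HIST1H2BK encodes an H2B, and HIST1H1C, HIST1H1D and HIST1H1E encode linker histones H1.2, H1.3 and H1.4.

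The ends of the transcripts are shown first because an oligo-dT primer selects RNAs with a run of A. Transcripts are GENCODE models of GRCh38, given in the sense of the mRNA, and these ends are the last bases of each model, 5′ to 3′. In the first line capitals mark runs of A, in the second the polyadenylation signal AATAAA, in the third the first 13 bases of the stem-loop and in the fourth the complete stem-loop of HIST1H2AC, a histone row outside the 7.
HIST1H4C: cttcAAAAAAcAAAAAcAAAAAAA
HIST1H4E: ctctgaaAATAAAgtctttgttacttcctg
HIST1H1E: cacaacccaaaGGCTCTTTTCAGA
HIST1H2AC stem-loop: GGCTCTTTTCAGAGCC
The HIST1H4C model ended in a stretch with 18 A among its last 24 bases, and 0.884% of 83129 protein-coding transcripts had as many there. The other members had 7 to 11 A in their last 24 bases. The HIST1H4E model was 1487 bases long with AATAAA beginning 23 bases from its end. None of the 7 models held these exact 16 bases, which 17 of 71 annotated histone genes had after the stop codon. Stem-loops with other bases were not searched for, so neither count shows that a gene lacks a stem-loop. The models of HIST1H1C, HIST1H1D, HIST1H3B and HIST1H2BK cover the coding region only. Whether the A-rich end bears on how many HIST1H4C molecules were captured was not tested.

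The upstream sequences are shown because the members' shares moved together over cells. Whether these sequences bear on the shares was not tested. RefSeq promoters of GRCh38.p14 were found for 6 of the 7 genes, all on chromosome 6; HIST1H4C was not among them. Each line gives the gene, its strand, its place and its bases up to the last one before the start site. Capitals mark AAACACA (known as the H1 box), CCAAT (the CCAAT box), TATAAA (the TATA box), ATTTGCAT (the octamer) and GGTCCG (the core of an H4 element).
HIST1H1E, plus strand, chr6:26156199-26156328: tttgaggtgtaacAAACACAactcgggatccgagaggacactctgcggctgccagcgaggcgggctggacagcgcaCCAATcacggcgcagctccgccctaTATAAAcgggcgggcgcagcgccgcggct
HIST1H1D, minus strand, chr6:26234988-26235117: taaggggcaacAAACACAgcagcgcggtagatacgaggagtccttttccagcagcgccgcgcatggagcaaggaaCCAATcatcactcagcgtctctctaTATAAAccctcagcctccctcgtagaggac
HIST1H1C, minus strand, chr6:26056471-26056600: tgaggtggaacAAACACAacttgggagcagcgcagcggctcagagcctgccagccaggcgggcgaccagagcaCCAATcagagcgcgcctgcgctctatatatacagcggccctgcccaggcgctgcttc
HIST1H3B, minus strand, chr6:26032100-26032209: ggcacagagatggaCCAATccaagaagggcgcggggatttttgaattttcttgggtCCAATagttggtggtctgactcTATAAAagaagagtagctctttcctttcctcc
HIST1H2BK, minus strand, chr6:27146859-27146968: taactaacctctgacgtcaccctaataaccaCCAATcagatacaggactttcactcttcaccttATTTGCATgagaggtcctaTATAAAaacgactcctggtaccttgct
HIST1H4E, plus strand, chr6:26204550-26204609: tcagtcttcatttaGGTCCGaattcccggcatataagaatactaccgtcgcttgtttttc
The 3 linker histone genes shared AAACACA, whose first base lay at -117 in HIST1H1E and at -119 in HIST1H1D and HIST1H1C. Searched on both strands of 250 upstream bases, AAACACA was in 4.82% of 35116 promoters, CCAAT in 32%, TATAAA in 10.7%, ATTTGCAT in 1.63% and GGTCCG in 9.43%. CCAAT was in 5 of the 6 members and TATAAA in 4, while ATTTGCAT was in HIST1H2BK and GGTCCG in HIST1H4E. The letters GGTCCG also stood in the HIST1H4C transcript model near its 5′ end, beginning 62 bases before the ATG, in this stretch of 30 bases:
HIST1H4C transcript: ttttcaatcaGGTCCGccaagtttgtattt
A match is a run of letters and no measured binding site. The H4 coding regions of HIST1H4C and HIST1H4E, 312 bases each, were 80.8% identical, and the 3 linker histone coding regions 74.4% to 77.5%. No 2 members shared a run of 30 coding bases, and none of the 406 runs of 30 bases in the HIST1H4C model occurred in a transcript of another gene.

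A cell held 29325 to 138647 endogenous UMIs (median 59689) and 2573 to 4717 spike-in UMIs. Shares are given as percent of a cell's endogenous UMIs, and 95% exact binomial intervals cover counting error only. In 1 cell a count of 0 allows a share of up to 0.00216% to 0.0102%, depending on the cell's depth. Of 8 kidney markers looked for 3 had a row with a UMI: PAX2 had 8 UMIs in all, PAX8 1 and NPHS1 1. Of 7 markers of neurons 5 had a row with a UMI: UCHL1 had 817, NEFM 462, NEFL 112, ENO2 50 and INA 15. The share of that neuronal list had a Spearman rho of -0.33 with the HIST1H4C share, and its part in the results was not tested.

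HIST1H4C was the ninth most abundant gene and by far the most abundant member. Each of the 47 cells held it, with 45 UMIs in cell 20, a median of 294 and 881 in cell 43. Its summed 16578 UMIs were 0.568% of all endogenous UMIs. The mean was 353 ± 258 UMIs per cell (SD, n = 47). The lowest share, in cell 57, was 0.0905% (interval 0.0694% to 0.116%), the median 0.577% and the highest, in cell 8, 1.63% (1.5% to 1.77%). The intervals of cells 57 and 8 lay far apart, so the 18.0-fold range between them was larger than counting error. Divided by each cell's own recovery of the spike-ins, the counts correspond to 251 (cell 44) to 4417 (cell 8) HIST1H4C molecules, with a median of 1760. This scale holds only if HIST1H4C RNA was captured as well as the polyadenylated spike-ins, which was not tested.

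The HIST1H4C shares covered their range without an empty middle. On a doubling scale, 6 cells lay below 0.125%, 10 between 0.125% and 0.25%, 6 between 0.25% and 0.5%, 19 between 0.5% and 1% and 6 above 1%. The fewest cells per doubling thus fell at both ends and between 0.25% and 0.5%, and the most in the doubling that holds the median. The widest gap between neighbouring cells on the log2 scale was 0.40, between 0.109% in cell 67 and 0.144% in cell 80. The 6 cells below it (57, 18, 16, 20, 44 and 67) held 45 to 78 HIST1H4C UMIs each, and their intervals overlapped one another. From the 10th to the 90th percentile of cells the share ran from 0.105% to 1.05%. The SD of the log2 share was 1.25. The share bore almost no relation to depth: rho was -0.0035 with endogenous UMIs, -0.082 with spike-in UMIs and -0.10 with the number of genes detected (47 cells; the denominators are shared).

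**Figure D1:**
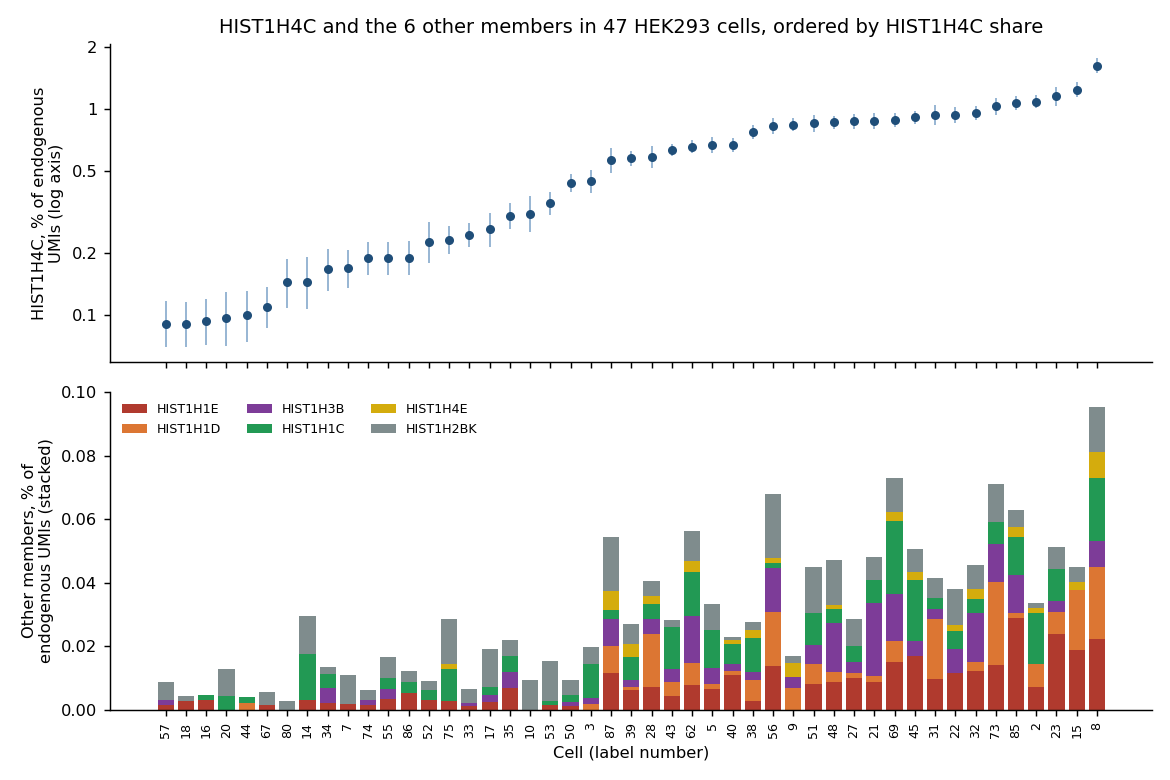
Upper panel: HIST1H4C as percent of endogenous UMIs in each of 47 cells (log axis), ordered by that share, with 95% exact binomial intervals as bars. Lower panel: the 6 other members stacked, in percent of endogenous UMIs, in the same order of cells; HIST1H4C runs from 0.0905% to 1.63% without a wide gap, and HIST1H1D (orange) has more than 1 UMI in no cell left of cell 87.

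The spread of a gene over cells is given as its index of dispersion. This is a chi-square statistic of its UMIs over its degrees of freedom, and it is 1 under counting error alone. Spike-ins have no biological variation between chambers, and a line through 52 of them gave the index that technical noise reaches at each abundance. HIST1H4C had an index of 140.5 where the line gave 1.74, the highest of 9088 genes with at least 20 UMIs. The next was MT-RNR1, a mitochondrial ribosomal RNA, with 87.2, and the median gene had 2.00. The index grows with abundance, so HIST1H4C was also set beside the other 19 most abundant genes by the coefficient of variation of the share (SD over mean, counting error included). Theirs ran from 0.108 to 0.469, against 0.686 for HIST1H4C. The sparser members had a coefficient of 0.662 (HIST1H2BK) to 1.61 (HIST1H4E).

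A 1-sided chi-square test of each index against the spike-in line, with Benjamini-Hochberg adjustment over all 9088 genes and a threshold of 0.05, called 278 genes, which is 3.06%. Of the 7 members 2 passed, HIST1H4C and HIST1H1D. The adjusted p of HIST1H4C was too small to be represented as a number, and that of HIST1H1D was 0.0207, with an index of 5.66 against 2.19 from the line. The HIST1H1D call ended when cell 73, which holds 11 of its 107 UMIs, was left out. Indices of HIST1H3B (4.15, adjusted p = 0.204), HIST1H1E (3.77, 0.263) and HIST1H1C (3.57, 0.399) stood above the line, at 2.14 to 2.17, but missed the threshold. HIST1H2BK (index 1.98) and HIST1H4E (1.54) lay below it, with an adjusted p of 0.897 each. Against counting error alone all 7 members passed, as did 82.6% of all genes, so that count says little about histones. With a plain chi-square tail in place of one matched to the spread of sparse counts, 5.4% of genes and 4 of 7 members passed, HIST1H1E (adjusted p = 0.0239) and HIST1H3B (0.00568) among them. The labels name 1 run and no separate cultures, so these p-values concern the spread among these cells and compare no conditions.

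The other 6 members were sparse. Together they held 867 UMIs, with 1 UMI in cell 80, a median of 15 and 65 in cell 62. HIST1H4C made up 95% of the members' UMIs, and within single cells from 83.1% to 98.2%. UMIs mark 1 end of each captured molecule, so these counts were not divided by length. The 35 UMIs of HIST1H4E, the other H4 gene, put HIST1H4C at 474 times its count. HIST1H2BK had 199 UMIs in 45 of 47 cells, with a median of 4 and a highest value of 13. HIST1H3B had 141 UMIs in 32 cells and reached 17 in cell 62.

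The 3 linker histone genes differed in how they were spread over cells. HIST1H1E had 195 UMIs in 41 cells, with a median of 3 and 17 in cell 85. HIST1H1C had 190 UMIs in 37 cells, with a median of 2 and 18 in cell 43. HIST1H1D had 107 UMIs in 25 cells, with a median of 1 and 11 in each of cells 56 and 73. HIST1H1D was thus missing from 22 cells, against 6 for HIST1H1E. Over all cells HIST1H1E made up 39.6% of the 492 linker histone UMIs, HIST1H1C 38.6% and HIST1H1D 21.7%. In the 22 cells with at least 10 such UMIs the part of HIST1H1C ran from 0% in cell 15 to 60% in cell 5, and that of HIST1H1D from 0% in cell 45 to 60% in cell 31. HIST1H1E stayed between 13.3% in cell 38 and 68% in cell 85, and was the only linker histone gene with a UMI in each of those 22 cells. With so few UMIs per cell these parts carry wide counting error.

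The shares of most members varied together with that of HIST1H4C over cells. Over 47 cells the Spearman rho of the HIST1H4C share was 0.77 with HIST1H1E, 0.72 with HIST1H1D, 0.63 with HIST1H3B, 0.55 with HIST1H4E, 0.53 with HIST1H1C and 0.30 with HIST1H2BK. All 6 were above 0, where 42.3% of 9087 genes were, and all 6 were in the top 5.01% of genes, above a rho of 0.23. With spike-in UMIs as the denominator all 6 were again above 0, where 72.1% of all genes were, and 5 were in the top 5%; HIST1H2BK, at 0.356 and rank 478, fell short of the 0.359 needed. With endogenous UMIs, HIST1H1E and HIST1H1D had the highest rho of any gene, HIST1H3B the fourth, HIST1H4E the sixth and HIST1H1C the eighth. HIST1H2BK ranked 147th. These are descriptions over cells of 1 run, with the same denominator for both shares in each cell, and no p is attached.

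HIST1H4C rho with the summed share of the other 6 was 0.83. It was 0.85 in the 30 cells with label numbers up to 48 and 0.90 in the 17 cells above 48. With spike-in UMIs in place of endogenous UMIs as the denominator it was 0.88, and after thinning each cell to 29325 UMIs it was 0.76. The 15 pairs without HIST1H4C had a rho of 0.18 (HIST1H1D with HIST1H2BK) to 0.65 (HIST1H1E with HIST1H3B), with a median of 0.46. That median was 0.34 after thinning, and all 21 pairs stayed above 0.

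Single cells show how the sparse members sit along the HIST1H4C range. Cells with 2 or more HIST1H1D UMIs numbered 17, and the one with the least HIST1H4C among them was cell 87, at 0.565%. The same cell marked the lower end for HIST1H4E, which had 2 or more UMIs in 10 cells. HIST1H1E, by contrast, had 2 UMIs in cell 18, where HIST1H4C was at 0.0907%. HIST1H2BK had 4 UMIs in cell 57, the cell with the least HIST1H4C. At the other end, cell 15 had 526 HIST1H4C UMIs (1.24%) with 8 each of HIST1H1E and HIST1H1D but none of HIST1H3B or HIST1H1C. Cell 9 had 745 HIST1H4C UMIs with 6 of HIST1H1D and none of HIST1H1E or HIST1H1C.

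**Figure D2:**
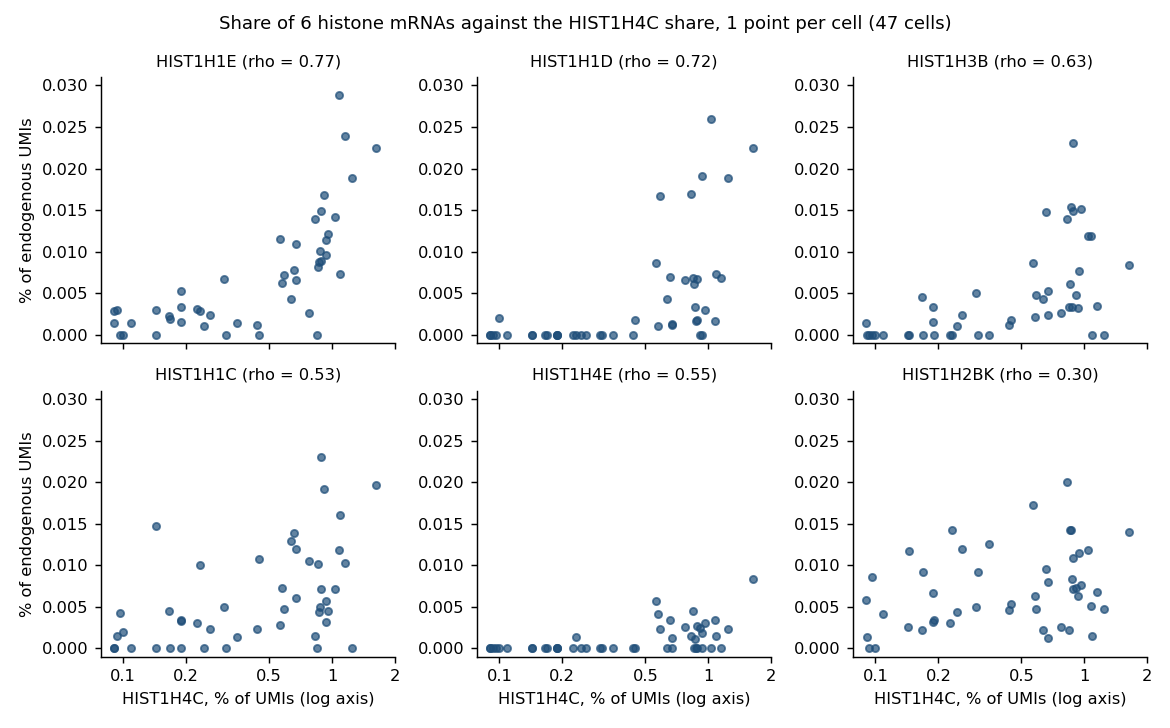
Each panel plots 1 member's share (percent of endogenous UMIs) against the HIST1H4C share (percent, log axis), with 1 point per cell for 47 cells and the Spearman rho in the panel title. HIST1H1E climbs along the range (0.77), HIST1H1D and HIST1H4E lie at or near 0 up to about the middle of it, and HIST1H2BK (0.30) is spread across it.

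The ratio of each member to HIST1H4C was then compared over cells, by recomputing the index with HIST1H4C UMIs in place of endogenous UMIs as the expected proportion. A lower index means that a gene's counts follow HIST1H4C more closely than they follow the cell's total. The index was lower for 5 of 6 members, against 1.53% of 9087 genes. For HIST1H1E it went from 3.77 to 1.3, near counting error, and for HIST1H4E from 1.54 to 0.871. For HIST1H1D it went from 5.66 to 2.64, for HIST1H3B from 4.15 to 2.19 and for HIST1H1C from 3.57 to 2.97. HIST1H2BK went the other way, from 1.98 to 4.21. The summed 6 members had an index of 9.23 against endogenous UMIs and 3.31 against HIST1H4C, so their ratio to HIST1H4C was not constant. Over all cells that ratio was 52.3 UMIs per 1000 of HIST1H4C, and it ran from 18.2 in cell 80 to 204 in cell 14, both cells with few UMIs of either.

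**Figure D3:**
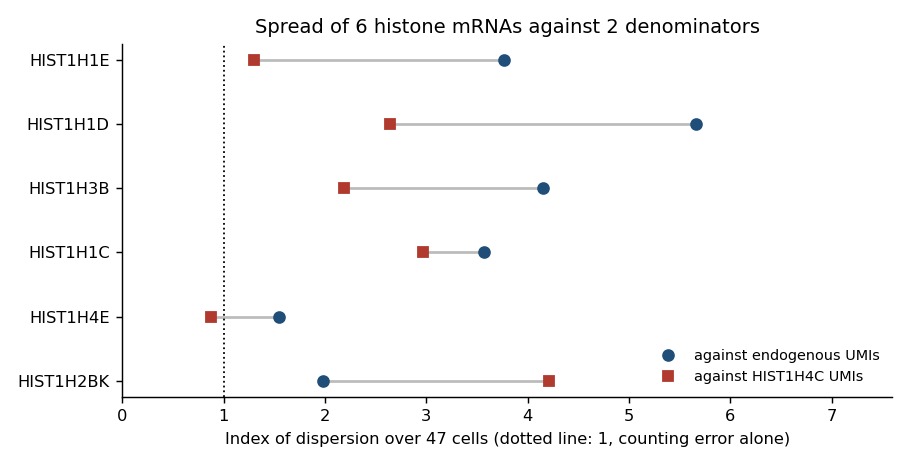
Index of dispersion of the 6 sparse members over 47 cells, computed against endogenous UMIs (circles) and against HIST1H4C UMIs (squares); the dotted line at 1 is counting error alone. The square lies left of the circle for 5 genes and right of it for HIST1H2BK (1.98 and 4.21).

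The other histone rows had at most 93 UMIs (HIST1H2AM). That is more than the 35 of the member HIST1H4E, which HIST2H2AC (82), HIST3H2A (59) and HIST1H2AC (44) also exceeded. The table has 40 rows named HIST1H to HIST4H, 39 of them with a UMI, and 18030 UMIs in all. H4 rows held 92.2% of these, H1 rows 492 UMIs, H2A rows 382, H2B rows 332 and H3 rows 198. Of the 33 rows outside the 7, 9 had at least 20 UMIs, none of which passed the spike-in noise test. HIST1H2AM, an H2A gene with 93 UMIs, had a rho of 0.64 with HIST1H4C, rank 3 of all genes, and was the gene closest to HIST1H4E (rho 0.83). HIST1H2AC had a rho of 0.47, HIST1H2AI 0.42, HIST1H3A 0.39 and HIST1H2BJ 0.24, all 4 in the top 5.01%. Lower values were seen for HIST2H2AC (0.22), HIST1H2AH (0.18), HIST1H2BC (0.16) and HIST3H2A (-0.0024). In all, 8 of the 9 rows had a rho above 0.

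The members did not all have the same nearest gene. By rho of the shares over 47 cells, among genes with at least 20 UMIs, the nearest to HIST1H1E, HIST1H1D and HIST1H1C was HIST1H4C, and the nearest to HIST1H3B was HIST1H1E. HIST1H2BK was nearest to RPL39L (0.49), a ribosomal protein gene, and its highest rho with a member was 0.42, with HIST1H3B. Among genes with at least 200 UMIs that are not histones, the highest rho with HIST1H4C was that of PCMT1 (0.60), an enzyme that repairs damaged aspartyl residues in proteins. DUT (0.55), which hydrolyses dUTP, KIAA0101 (0.50), a PCNA-binding protein, and CDC45 (0.46), a part of the replicative helicase, followed. ATP5G1, TALDO1, DDT, RPS13, MYBL2 and GABARAP had values of 0.41 to 0.46; of these MYBL2 is a transcription factor of cell cycle genes, ATP5G1 a subunit of ATP synthase and RPS13 a ribosomal protein. KIAA0101 (adjusted p = 0.00662), ATP5G1 (8.1e-05) and RPS13 (1.1e-16) passed the spike-in noise test, while PCMT1 and DUT had an adjusted p of 0.897 and 0.123.

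By summed share, nucleotide supply genes had the highest rho of the 6 gene lists compared with HIST1H4C. The list holds 13 enzymes that make or balance DNA precursors, and its summed share had a rho of 0.53 with HIST1H4C and 0.55 with the other 6 members. The summed share was 0.0921% in cell 27, a median of 0.170% and 0.255% in cell 73. Of the 13 genes 9 had a rho above 0 and 4 were in the top 5.01%. Over spike-in UMIs 12 of the 13 were above 0, where 72.1% of all genes were. Among those with at least 200 UMIs DUT led with 0.55, TK1 (thymidine kinase) had 0.34, RRM1 0.27 and RRM2 0.21, both subunits of ribonucleotide reductase. DTYMK, which phosphorylates dTMP, had -0.034 and NME1 -0.0017, which became 0.14 and 0.23 over spike-in UMIs. TK1 alone of the list passed the spike-in noise test (adjusted p = 0.00384).

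As summed shares, genes of origin licensing and of the fork showed weaker relations to HIST1H4C. Gene by gene the lists were closer: the median rho was 0.125 for nucleotide supply, 0.103 for fork and 0.029 for licensing genes. In that order 69.2%, 70.6% and 62.5% of the tested genes had a rho above 0. The 24 licensing genes, which load, start or regulate the helicase, had a summed rho of 0.22, and 15 had a rho above 0. GMNN, an inhibitor of licensing, held 991 of the list's 5998 UMIs. CDC45 (0.46), MCM7 (0.30) and CDC6 (0.17) were highest among those with at least 200 UMIs, while MCM2 had -0.0082, GMNN -0.040, GINS2 -0.089 and ORC4 -0.091. Over spike-in UMIs 22 of the 24 were above 0, where 72.1% of all genes were. MCM2 (0.26), GMNN (0.20), GINS2 (0.12) and ORC4 (0.11) were among those that changed sign. None of the 24 passed the spike-in noise test. Of 34 tested fork genes 24 had a rho above 0 and 5 were in the top 5.01%, and the summed rho was 0.18. RFC5 (0.35) and RFC4 (0.20), subunits of the clamp loader, and PCNA (0.19), the clamp, were highest among those with at least 200 UMIs, and POLE4 (-0.30), RFC3 (-0.27) and POLE3 (-0.17) lowest. Over spike-in UMIs 32 of the 34 were above 0, again beside 72.1% of all genes. POLE4 (0.0091), RFC3 (0.035) and POLE3 (0.039) then lay just above 0. PCNA passed the noise test (adjusted p = 0.00213), as did RPA2 and RPA3, subunits of the single-strand binding protein, and TOP2A, a topoisomerase. The fork rho was 0.026 in the 30 cells numbered up to 48 and 0.57 in the 17 above; that difference was not tested.

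Mitosis genes as a list ran against HIST1H4C, with a rho of the summed share of -0.28, but this turned to 0.16 with spike-in UMIs as the denominator. Of 48 tested genes 16 had a rho above 0, 2 were in the top 5.01% and 11 in the bottom 5.01%, below -0.28. With the spike-in denominator 33 of the 48 were above 0, where the share of all genes above 0 went from 42.3% to 72.1% and the median gene's rho from -0.031 to 0.091. CCNB1, cyclin B1, had -0.46 with endogenous UMIs and -0.20 with spike-in UMIs as denominators. CDC20, an activator of the anaphase-promoting complex, had -0.38 and -0.13, and PTTG1, securin, -0.35 and -0.0016. CDK1, the kinase that cyclin B1 activates, had 0.29 and 0.48, NUSAP1 0.26 and 0.46, and UBE2C, which passes ubiquitin to targets of the anaphase-promoting complex, 0.14 and 0.34. The list therefore held genes on both sides under either denominator. CCNB1, CDK1 and UBE2C each passed the spike-in noise test, with an adjusted p of 4.9e-07, 1.3e-07 and 7.9e-34. CCNB1 had 43 UMIs in cell 67 and 32 in cell 18, 2 of the 6 cells with the least HIST1H4C, but also 47 in cell 9, where HIST1H4C was at 0.842%.

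**Figure D4:**
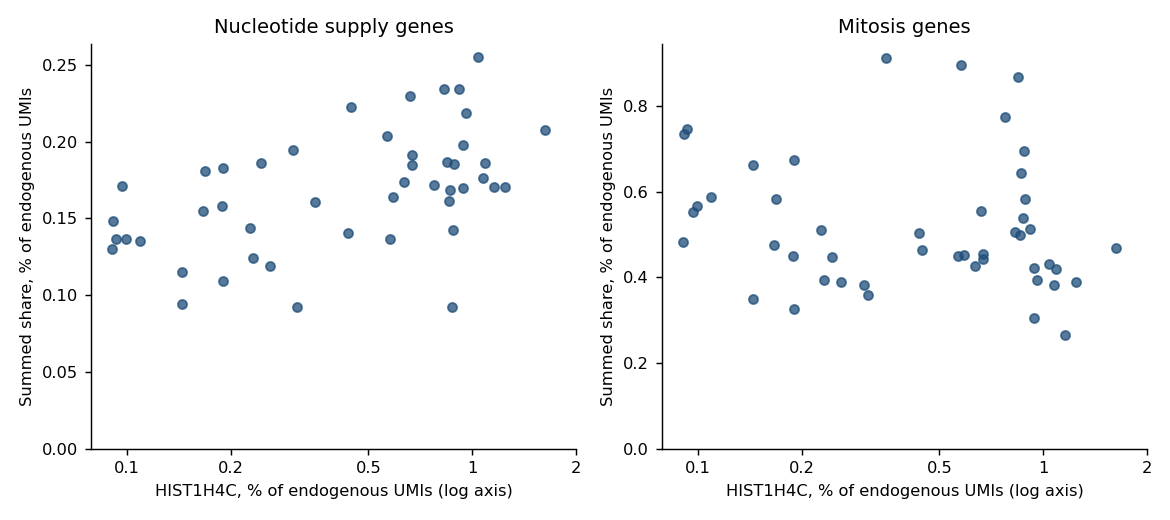
Summed share of 13 nucleotide supply genes (left) and 48 mitosis genes (right), in percent of endogenous UMIs, against the HIST1H4C share (percent, log axis), with 1 point per cell for 47 cells. The points of the left panel slope upward (rho 0.53); in the right panel (rho -0.28, and 0.16 with the spike-in denominator) the highest mitosis shares are in cells 53 (0.913%), 39 (0.896%) and 9 (0.867%), at HIST1H4C shares of 0.349%, 0.577% and 0.842%.

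The lowest rho values among genes with at least 200 UMIs were those of DEPDC1 (-0.55), TMX1 (-0.50), SNRPA (-0.50), LARP1 (-0.48), THOC2 (-0.47), ARF5 (-0.46), PSMB5 (-0.46), CCNB1 (-0.46), SRSF7 (-0.45) and TMCO1 (-0.45). All 10 stayed below 0 with each of the other 3 denominators (TMM, DESeq2 and spike-in UMIs). With spike-in UMIs DEPDC1 was at -0.32, but PSMB5, a proteasome subunit, was at -0.031, SRSF7, a splicing factor, at -0.030 and TMCO1 at -0.013. CCNB1 and SRSF7 (adjusted p = 0.0112) passed the spike-in noise test, and the other 8 did not.

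Genes that make and handle histone mRNA and protein did not follow HIST1H4C as a list. The summed share of 27 such genes had a rho of -0.079, which turned to 0.036 with TMM scaling and 0.30 with spike-in UMIs. Of 25 tested genes 11 had a rho above 0, close to the background, and none passed the spike-in noise test. With spike-in UMIs as the denominator 21 of the 25 were above 0, where 72.1% of all genes were. SLBP, which binds the stem-loop, had 358 UMIs and a rho of -0.062. NPAT, the coactivator of histone gene transcription, had 68 UMIs and a rho of -0.18, and SNRPD3, a core protein of splicing and histone-processing particles, 0.32. SNRPB, another such protein, had -0.31 with endogenous UMIs and 0.22 with spike-in UMIs as the denominator. SLBP, at 0.068 with spike-in UMIs, also changed sign.

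Replacement histones are made outside S phase too, and most of their mRNAs carry poly(A) tails. The 3 most abundant were more evenly spread than HIST1H4C. Their coefficient of variation was 0.222 (H2AFZ), 0.278 (H3F3A) and 0.324 (H3F3B), against 0.686. The sparser H2AFV, H1FX and H2AFY had 0.469, 0.532 and 0.575, counting error included. H2AFZ, which encodes H2A.Z, had 5665 UMIs, from 31 to 222 per cell (median 116), and an index of 5.37. H3F3A had 2667 UMIs (7 to 136 per cell, index 3.56) and H3F3B 1948 (9 to 88, index 3.70), both encoding H3.3. These 3 passed the spike-in noise test with an adjusted p of 2.9e-08, 0.0162 and 0.0120. Their rho with HIST1H4C was 0.23 for H2AFZ, 0.18 for H3F3A and -0.021 for H3F3B. Of 10 tested replacement histone genes 4 had a rho above 0, close to the 42.3% of all genes, and the rho of the summed share was 0.21. With spike-in UMIs as the denominator 9 of the 10 were above 0, where 72.1% of all genes were, and the summed share had 0.44.

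**Figure D5:**
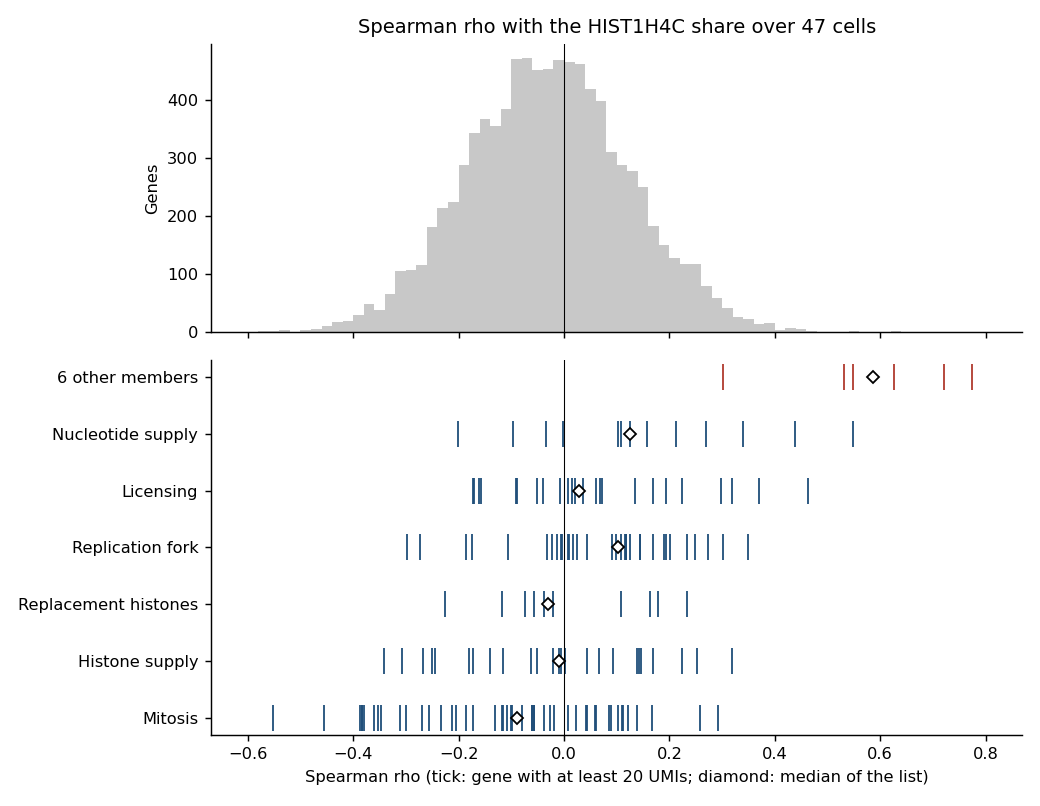
Upper panel: number of genes by Spearman rho with the HIST1H4C share over 47 cells, for 9087 genes with at least 20 UMIs. Lower panel: each tick is a gene of the 6 other members (red) or of a gene list (blue) and each diamond the list's median; the members lie between 0.30 and 0.77, the mitosis list's median is at -0.089 (0.098 with the spike-in denominator) and that of nucleotide supply at 0.13.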

How the data were processed

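Values are raw UMI counts in a table that the authors deposited. Software named in the submitters' processing notes is cutadapt 1.2.1 and STAR 2.4.0a, and genome builds named there are hg19 and GRCh37. The annotation, UMI collapsing, use of strand, treatment of reads with several matches and the filter on cells are not given in the sources used here, so reads of near-identical histone copies or of overlapping genes may be split or lost. A repeated header row (0.0602% of all counts) was left out, as were spike-in rows from totals.

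The index of dispersion was computed for 9088 genes with at least 20 UMIs. Its test used the upper tail of a scaled chi-square distribution matched in mean and variance to negative binomial counts at the spike-in line. A plain chi-square tail was planned first. The matched tail, chosen after seeing the data, replaced it, and the plain tail is given as an alternative. Simulated counts used in that choice were drawn from the negative binomial model that the matched tail assumes. They cannot show which tail suits the real counts. Correlations are Spearman's over cells. Named genes are the members, histone rows with at least 20 UMIs, the 10 highest and 10 lowest rho with HIST1H4C among genes with at least 200 UMIs, and in each list the 4 most abundant and the 3 highest and 3 lowest. PCNA, SLBP and NPAT were added by name. Members and lists were chosen with earlier results of these data known. A mitosis list gene without a row is not analysed here. Thinning drew UMIs without replacement with 1 fixed seed.

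Python 3.11.15, numpy 2.4.6, pandas 2.3.3 and scipy 1.17.1 were used, with edgeR 4.0.16 and DESeq2 1.42.0 in R 4.3.3 for alternative scalings. Promoters came from RefSeq tables of GRCh38.p14 and transcripts from GENCODE, for sequence only. Alternatives were other noise models, minimum counts, scalings, thinning, label-number ranges and leaving out each cell.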

Additional observations from a re-analysis of the deposited data

How the results depend on the processing

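The alternatives gave 119 values, each for a result under a setting, with the lowest and highest leave-one-out values counted separately. Most of these values were within tolerance. This was a factor of 1.5 for the numbers of genes and members past the noise test, and 0.147 for rho. For the fold range it was the interval of 12.9 to 25.4. The HIST1H4C index was held to no factor and counted as unchanged where HIST1H4C still passed the noise test. After thinning to the smallest total that index was 78.7, against 140.5 in the main analysis, and HIST1H4C still passed. Leaving out each cell in turn gave a HIST1H4C fold range of 13.7 (without cell 8) to 18.0, an index of 130.8 to 144.2, and a rho with the other members of 0.823 to 0.853. The lists gave 0.175 to 0.278 (licensing), 0.152 to 0.260 (fork), 0.511 to 0.587 (nucleotide supply), -0.129 to -0.0265 (histone supply), -0.326 to -0.236 (mitosis) and 0.173 to 0.272 (replacement histones). Genes past the noise test numbered 257 to 288, and the HIST1H1D call ended without cell 73. With spike-in UMIs as the denominator 877 genes and 4 members passed (HIST1H4C, HIST1H1D, HIST1H3B and HIST1H1C), and rho was 0.427 for licensing, 0.425 for fork, 0.440 for replacement histones, 0.300 for histone supply and 0.164 for mitosis genes, the last 2 reversed. TMM scaling reversed histone supply to 0.0357. In cells numbered above 48 the fold range was 11.9, 132 genes and 1 member passed, and rho was 0.566 for fork and 0.740 for nucleotide supply genes; up to 48 it was 0.0265 for fork genes and 1 member passed. These subsets hold fewer cells and fewer tested genes. Counting error alone let 7509 genes and 7 members pass, and the plain chi-square tail, planned as the main test and kept as an alternative when the matched tail was chosen after seeing the data, 491 genes (5.4%) and 4 members (HIST1H4C, HIST1H1E, HIST1H1D and HIST1H3B). For the scalings the cause was not tested. No paired analysis was possible because the labels give 1 group. The sparse members' 35 to 199 UMIs limit the noise test and each rho.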

Other observations

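Some histone rows with fewer than 20 UMIs were concentrated in very few cells. HIST1H2AL, an H2A gene, had 12 UMIs in 4 cells and reached 6 in a single one. HIST1H2AK had 13 UMIs in 5 cells. HIST1H4H, an H4 gene, had 7 UMIs in 2 cells and reached 5, while HIST1H2BN had 19 UMIs in 14 cells with at most 2 in any. HIST1H2BM was the only histone row with 0 UMIs, which allows a share of up to 0.000103% of all endogenous UMIs. These rows were too sparse for the spread test.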
